A study of Mus musculus with 24 samples.

Results

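Messenger RNA of the matrix metalloproteases (MMPs), the ADAMTS proteases and the tissue inhibitors of metalloproteases (TIMPs) was followed across 24 mouse colon RNA-seq libraries. Members were all symbols made of Mmp or Adamts and a number (with a or b where present) and the TIMP genes, which gave 46 of the 23329 symbols in the files. They comprised 23 MMP, 19 ADAMTS and 4 TIMP genes. All mice were C57Bl/6 and carried VilCre, a Cre recombinase driven by the villin promoter, which is active in gut epithelium. Controls had the genotype VilCre, and caNrf2 mice had the genotype VilCre-CMVcaNrf2, which adds a constitutively active NRF2 transgene (caNrf2). There were 6 groups of 4 libraries: untreated and dextran sulfate sodium (DSS) treated colon wall of each genotype, and untreated colon epithelial cells of each genotype. DSS is a chemical that injures the colon lining. The sources used here give neither its dose and duration, nor the age of the mice, nor how the epithelial cells were isolated. Wall pieces were 10 mm long, taken 10 to 20 mm proximal to the rectum. The series text speaks of triplicates, whereas the labels list 4 libraries per group.

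MMPs are zinc proteases that cut collagens, gelatin, elastin, proteoglycans and many cell surface and signalling proteins. Most are secreted as inactive precursors by fibroblasts, macrophages, neutrophils or injured epithelium, and the membrane type MMPs act at the cell surface. ADAMTS proteases are secreted zinc proteases that trim procollagens, cut proteoglycans such as versican and aggrecan, or act on microfibrils. TIMPs bind the active site of MMPs, and TIMP3 also blocks several ADAMTS and ADAM proteases. In the colon these genes are known for their rise in ulcers and in experimental colitis.

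Library totals were 20232309 to 154336039 counts in colon wall and 6683803 to 15399862 in epithelial cells, so low members were measured less precisely in the latter. Nfe2l2, which encodes NRF2, was at 107, 137, 134 and 152 CPM, the count scaled to library size, in untreated control wall and at 197, 160.4, 207 and 245 CPM in untreated caNrf2 wall. Some libraries stood apart. In the DSS groups, control library 4 and caNrf2 library 1 had the highest sums of 8 fibroblast markers, 3999 and 3782 CPM, against 2009 to 3313 CPM in the other DSS libraries. Among epithelial cells, control library 3 and caNrf2 library 1 had the highest sums of 10 epithelial markers, 24064 and 25016 CPM, and the lowest fibroblast sums of their groups, 9.24 and 25.2 CPM. The epithelial cell label held for stromal markers: the sum of 7 smooth muscle markers was 12.5 to 82.4 CPM there and 11897 to 16955 CPM in untreated wall. The epithelial marker sum was 9964 to 25016 CPM in epithelial cells and 15746 to 28465 CPM in untreated wall, so these libraries did not stand above the wall in it. Its markers went either way. Cdx2 was at 137 to 376 CPM in epithelial cells and 13.8 to 57.3 CPM in untreated wall, and Slc26a3 at 56.7 to 387 and 849.6 to 1879 CPM. Krt20 was at 1508 CPM in epithelial control library 3 and 1590 CPM in caNrf2 library 1, against 96.2 to 371 CPM in the other epithelial libraries.

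Levels between genes were compared in TPM, a unit scaled for transcript length, as mean ± SD of 4 libraries. In untreated control wall the highest members were Timp3 at 72.1 ± 14.1 TPM, Mmp15 at 69.4 ± 3.05 TPM, Timp2 at 58.9 ± 17.4 TPM and Mmp14 at 58.3 ± 16.2 TPM. Neighbours in this order differed by less than the SD of Timp3, Timp2 or Mmp14. Mmp2 followed at 23.2 ± 5.19 TPM and Adamts15 at 18.5 ± 14.1 TPM. Mmp14 (MT1-MMP) and Mmp15 (MT2-MMP) encode membrane type proteases, and Mmp14 protein together with TIMP2 activates the precursor of the Mmp2 product. In control epithelial cells Mmp15 led at 81.8 ± 13.8 TPM, followed by Mmp14 at 69.2 ± 20.6 TPM, Timp2 at 20.7 ± 7.71 TPM, Timp3 at 14.6 ± 11.1 TPM, Mmp28 at 13.2 ± 2.48 TPM and Mmp7 at 11.3 ± 4.84 TPM. At the other end, Mmp1a had 0 counts in all 24 libraries, which allows up to 0.0113 CPM over the untreated control wall group (3 counts; counting error only). Mmp1b had 3 counts in all, of which 2 were in control DSS library 4 and 1 in caNrf2 DSS library 1. Mmp20 and Mmp21 had 5 and 6 counts in all.

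**Figure D1:**
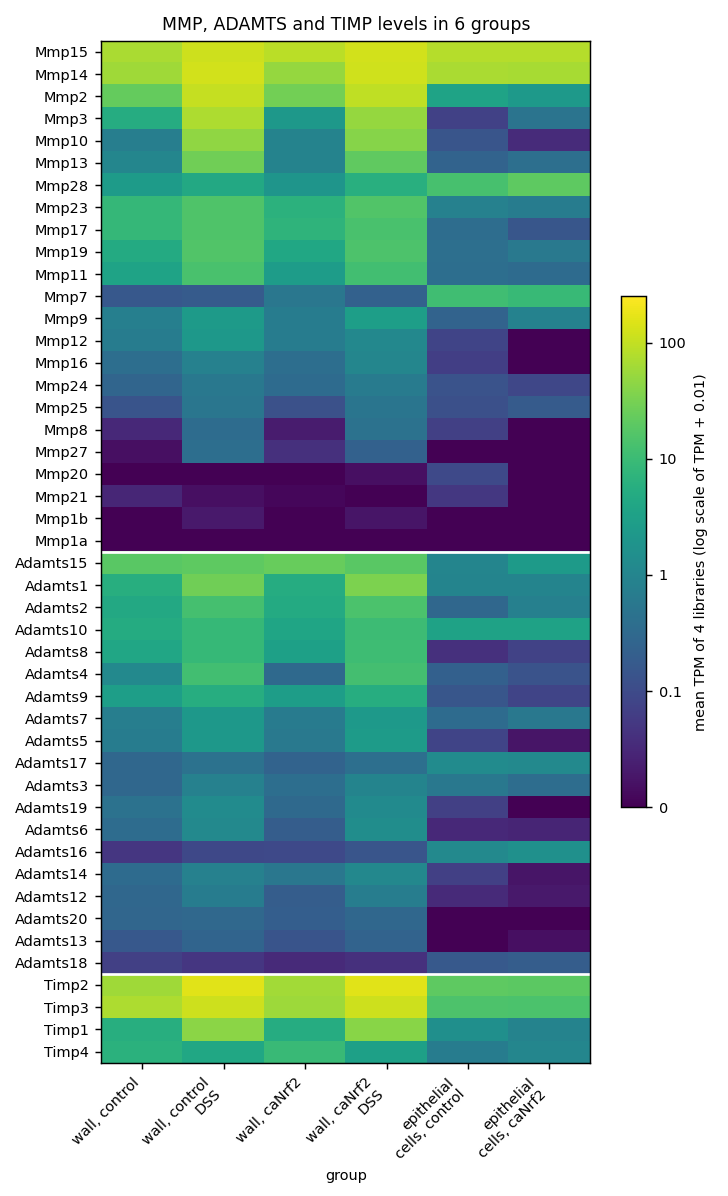
Mean level of the 46 members in the 6 groups, in TPM on a log colour scale, ordered by mean level within the MMP, ADAMTS and TIMP families (4 libraries per group). Mmp14, Mmp15, Timp2 and Timp3 are bright in all groups, Mmp3, Mmp10 and Mmp13 brighten in both DSS columns, and Mmp7 and Mmp28 are brightest in epithelial cells.

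With DSS, most of the members rose in the colon wall of both genotypes, with the stromelysins Mmp3 and Mmp10, the collagenase Mmp13, the proteoglycanase Adamts4 and the inhibitor Timp1 changing most. In control wall 31 of the 39 members with enough counts for the test were higher at an adjusted p below 0.05 and none was lower, where 39.2% of all 16074 genes tested were called, 23.1% higher. In caNrf2 wall 27 of 39 were higher and 1 (Timp4) was lower, where 41.2% of all genes were called, 23.1% higher and 18.1% lower. The median log2 fold change of the 39 members was 1.32 in control and 1.36 in caNrf2 wall, against 0.06 and 0.01 over all genes tested. By family, 16 of 17 MMPs, 12 of 18 ADAMTS genes and 3 of 4 TIMPs rose in control wall, and 14, 10 and 3 in caNrf2 wall. All 4 DSS libraries lay above all 4 untreated ones for 19 members in control and 25 in caNrf2 wall, against 15.8% and 18% of all genes. Adamts18, Mmp1a, Mmp1b, Mmp7, Mmp20, Mmp21 and Mmp27 had too few counts for this test. Mmp8 passed the filter on low counts through the DSS groups alone, so it had to differ, and it is described without its test. It counts among the 31 and 27, the MMP counts, the 19 and 25 without overlap and the medians. Of the 38 tested members that passed the filter within untreated wall, 30 were higher in control and 26 in caNrf2 wall, with 1 (Timp4) lower in the latter. Without control DSS library 4 and caNrf2 DSS library 1 the members called numbered 26 and 28. In bulk tissue, fewer cells of a type and less RNA per cell cannot be told apart. The fibroblast marker sum was 1044 to 1335 CPM in untreated wall and 2009 to 3999 CPM with DSS. The macrophage sum (9 markers measured) was 98.8 to 220.5 CPM untreated and 239 to 727 CPM with DSS, and that of 7 neutrophil markers was 7.2 to 11.1 and 18.8 to 49.1 CPM. The sum of 8 endothelial markers was 125 to 173 CPM untreated and 287 to 411 CPM with DSS. Their part in the rise was not tested.

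**Figure D2:**
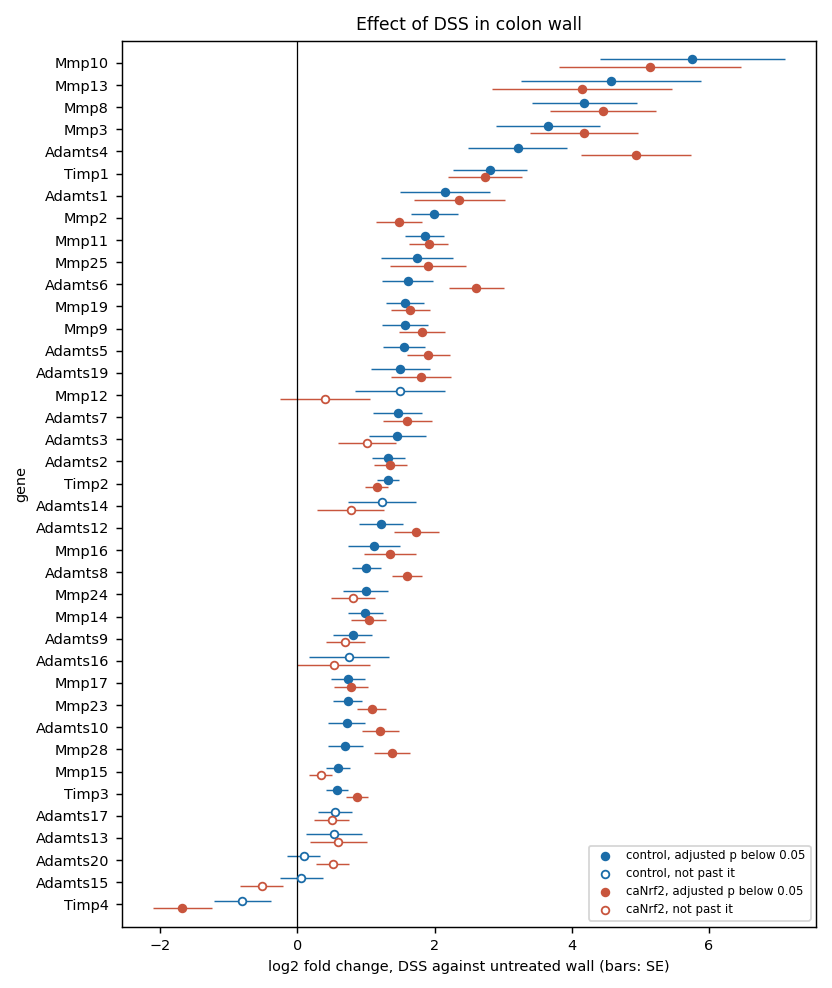
Log2 fold change with DSS (x axis, bars are SE) of the 39 tested members in control wall (blue) and caNrf2 wall (red), filled where the adjusted p was below 0.05. Mmp10 is at 5.76 and 5.14 at the top, and Timp4 at -0.81 and -1.68 at the bottom.

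The stromelysins cut a wide range of matrix proteins and activate other MMP precursors. Mmp10 (stromelysin-2) was at 1.36, 0.362, 0.772 and 0.643 CPM in untreated and 3.05, 10.5, 3.06 and 144 CPM in DSS control wall. With the transgene it was at 0.89, 0.773, 1.54 and 0.428 CPM untreated and 94.7, 7.75, 2.68 and 13 CPM with DSS. Every DSS library was above every untreated one, but 1 library per group held most of the signal. Its log2 fold change, given here and below with the SE, was 5.76 ± 1.35 (adjusted p = 0.00379) in control and 5.14 ± 1.33 (adjusted p = 0.00637) in caNrf2 wall. Without these 2 libraries it was 2.86 (adjusted p = 0.00243) and 3.14 (adjusted p = 0.00143). Leaving out library 4 of every wall group, whose deposited names begin with another number than those of libraries 1 to 3, gave 2.74 in control wall (adjusted p = 0.0578).

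Mmp3 (stromelysin-1) was at 7.13, 1.59, 4.12 and 9.05 CPM in untreated and 16.8, 36.1, 35.4 and 172 CPM in DSS control wall. In caNrf2 wall the values were 2.06, 4.39, 2 and 1.17 CPM untreated and 92.7, 29.3, 13.6 and 35.6 CPM with DSS. The groups did not overlap in either genotype, and the log2 fold changes were 3.66 ± 0.76 (adjusted p = 0.00175) and 4.18 ± 0.79 (adjusted p = 0.000857). Without control DSS library 4 and caNrf2 DSS library 1 they were 2.48 and 3.43, both still past the threshold. Mmp11 (stromelysin-3), which is activated by furin inside the cell, was more even: 3.34, 5.03, 3.4 and 6.72 CPM untreated and 12.2, 17.5, 16.7 and 16.1 CPM with DSS in controls. caNrf2 libraries were at 3.28, 2.5, 2.85 and 5.78 CPM and 14.1, 14.9, 12.2 and 12 CPM. Its groups were apart in both genotypes, with log2 fold changes of 1.86 ± 0.29 (adjusted p = 0.000294) and 1.91 ± 0.29 (adjusted p = 0.000195).

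Collagenases open the triple helix of fibrillar collagen. Mmp13 (collagenase-3) was at 1.99, 0.86, 2.06 and 1.91 CPM in untreated and 2.76, 8.38, 1.41 and 139.9 CPM in DSS control wall. Its caNrf2 values were 1.17, 1.44, 1.83 and 1.41 CPM untreated and 81.1, 7.21, 1.42 and 9.75 CPM with DSS. Library 3 of each DSS group lay within the untreated range, so the groups overlapped. The log2 fold changes were 4.57 ± 1.32 (adjusted p = 0.0122) and 4.15 ± 1.31 (adjusted p = 0.0191). Without control DSS library 4 the control change was 1.38 (adjusted p = 0.249), and without caNrf2 DSS library 1 the caNrf2 change was 2.04 (adjusted p = 0.163). With both libraries left out, Mmp13 passed again in caNrf2 wall. Mmp8, the neutrophil collagenase, was far lower, at 0.037, 0.091, 0 and 0.018 CPM untreated and 0.094, 0.436, 0.436 and 0.789 CPM with DSS in controls. The caNrf2 wall held 0, 0.028, 0.033 and 0.017 CPM and 0.876, 0.668, 0.257 and 0.325 CPM. DSS libraries were above all untreated ones, from 159 counts over all 24 libraries. As Mmp8 entered the test through its DSS groups, this is a description only. In controls the lowest DSS value, 0.094 CPM, came from 3 counts and the highest untreated one, 0.091 CPM, from 2 counts.

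**Figure D3:**
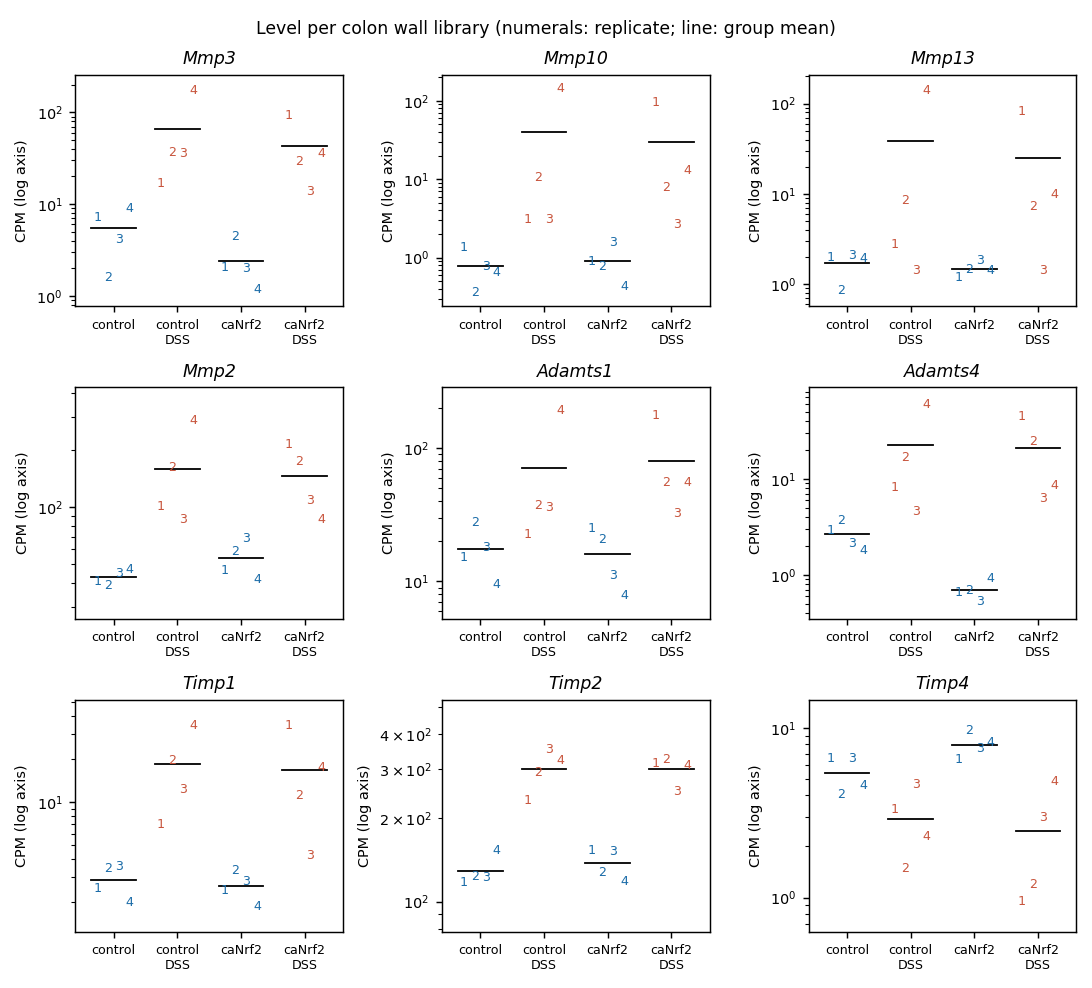
CPM (log axis) of 9 members in the 16 colon wall libraries, where each numeral is the replicate number of a library (blue untreated, red DSS) and the line is the group mean. Control DSS library 4 and caNrf2 DSS library 1 lead Mmp3, Mmp10, Mmp13, Adamts1, Adamts4 and Mmp2, Timp2 is tight in every group, and Timp4 is lower with DSS on average.

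Mmp3, Mmp10, Mmp13 and Mmp8 lie in one gene cluster. The files place 10 MMP genes on mm10 chromosome 9, between 7272514 and 7699416, in the order Mmp13, Mmp12, Mmp1b, Mmp3, Mmp1a, Mmp10, Mmp8, Mmp27, Mmp20 and Mmp7. Of the 10, 9 are on the plus strand, and 5 had enough counts for the wall test. Mmp10, Mmp13 and Mmp3 had DSS log2 fold changes of 3.66 to 5.76 in control wall. Mmp12, macrophage elastase, sits between them and did not pass in either genotype. It was at 1.82, 0.906, 1.55 and 1.85 CPM untreated and 1.07, 2.48, 1.12 and 11.4 CPM with DSS in controls, and at 1.12, 1.58, 1.73 and 1.77 CPM and 4.47, 0.768, 1.21 and 1.46 CPM in caNrf2 wall. Control DSS libraries 2 and 4 and caNrf2 DSS library 1 were above the untreated range of their genotype, and the groups overlapped. The log2 fold changes were 1.50 ± 0.66 (adjusted p = 0.0799) and 0.40 ± 0.66 (adjusted p = 0.648), and DESeq2 called the former (adjusted p = 0.0446). Mmp27 had 2 to 29 counts in each DSS library and at most 7 in each untreated one.

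**Figure D4:**
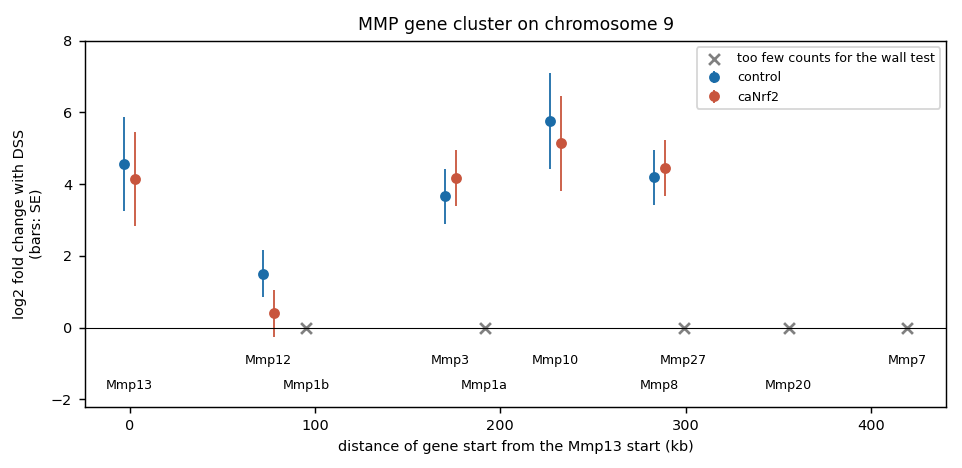
Log2 fold change with DSS (y axis, bars are SE) against the distance of the gene start from that of Mmp13 in kb, for the MMP gene cluster on chromosome 9 in control (blue) and caNrf2 (red) wall, with crosses for genes with too few counts. Mmp13, Mmp3 and Mmp10 lie between 3.66 and 5.76, Mmp8 (tested only through its DSS groups) near them, and Mmp12 lies at 1.50 and 0.40.

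Because several genes of this cluster were higher with DSS, the 110 bases before the RefSeq start of 6 of them (GRCm38.p6, plus strand, 5′ to 3′) are shown. AP-1, a dimer of Fos and Jun family proteins, is known to drive stromelysin and collagenase genes through a TGAGTCA element near a TATA box. Capitals mark TGAGTCA and TATAAA on either strand. The windows are chr9:7272404-7272513 (Mmp13), chr9:7347264-7347373 (Mmp12), chr9:7445712-7445821 (Mmp3), chr9:7502232-7502341 (Mmp10), chr9:7558319-7558428 (Mmp8) and chr9:7691980-7692089 (Mmp7).
Mmp13: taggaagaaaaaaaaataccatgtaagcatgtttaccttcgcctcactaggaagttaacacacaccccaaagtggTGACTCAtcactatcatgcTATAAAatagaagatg
Mmp12: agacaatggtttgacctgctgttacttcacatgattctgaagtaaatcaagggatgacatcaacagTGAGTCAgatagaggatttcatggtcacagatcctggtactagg
Mmp3: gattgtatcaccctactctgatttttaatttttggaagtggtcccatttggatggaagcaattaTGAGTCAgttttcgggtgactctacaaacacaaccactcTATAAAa
Mmp10: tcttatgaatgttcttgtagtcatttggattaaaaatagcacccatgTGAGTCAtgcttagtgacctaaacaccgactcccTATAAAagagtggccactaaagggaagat
Mmp8: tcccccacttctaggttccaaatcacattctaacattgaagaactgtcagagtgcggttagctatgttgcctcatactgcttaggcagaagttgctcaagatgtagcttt
Mmp7: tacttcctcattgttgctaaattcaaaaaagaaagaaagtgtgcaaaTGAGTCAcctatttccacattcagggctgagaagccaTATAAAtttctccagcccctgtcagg
The first base of TGAGTCA is 35 bases before the start in Mmp13 (on the minus strand, read here as TGACTCA), 44 in Mmp12, 46 in Mmp3 and 63 in Mmp10 and in Mmp7, and none is seen before Mmp8. Over windows of 300 bases (250 before and 50 after the start), 32 of the 46 members had a RefSeq window. TGAGTCA occurred on either strand in 7 of the 10 cluster genes (these 5, Mmp1a and Mmp1b) and in none of the 22 other members with a window, against 5.95% of 27025 genes with a window. TATAAA occurred in 9 of the 10 and in 2 of the 22 (Adamts1 and Mmp21), against 15.7% of these genes. These are matches of letters at any position. The nearest match began 26 to 29 bases before the start in Mmp7, Mmp1a and Mmp10, and 16 in Mmp13, 7 in Mmp3, 49 in Mmp1b and 58 in Mmp20. In Mmp12 it began 4 bases after the start, and in Mmp8 it lay on the minus strand across the start. TGACNNNGC, the core letters of the element that NRF2 binds, occurred in none of the 10 and in 6 of the 22 (Adamts2, Mmp15, Mmp21, Mmp24, Timp2 and Timp4). Of all windows, 12.4% held it, a share per window and not per gene as above. The share of genes with it was higher, so 12.4% is not a matched background for these member counts. Mmp8 has no TGAGTCA in this window. The part of these elements in the DSS values was not tested.

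The gelatinases cut denatured collagen and basement membrane collagen. Mmp2 (gelatinase A), a fibroblast product, was at 40.7, 38.8, 44.8 and 46.7 CPM in untreated and 101, 161, 85.8 and 285 CPM in DSS control wall. For caNrf2 wall the values were 46.6, 58.7, 68.2 and 41.4 CPM and 213, 174, 108 and 86.4 CPM. The groups did not overlap, and the log2 fold changes were 1.99 ± 0.34 (adjusted p = 0.000573) and 1.48 ± 0.34 (adjusted p = 0.00301). Mmp9 (gelatinase B), known from neutrophils and macrophages, was at 1.5, 1.68, 1.25 and 1.47 CPM untreated and 2.42, 3.05, 4.12 and 6.51 CPM with DSS in controls. With the transgene it was at 1.59, 1.37, 1.01 and 1.37 CPM and 7.17, 4.84, 3.17 and 3.05 CPM. Again every DSS library was above every untreated one, and the log2 fold changes were 1.57 ± 0.34 (adjusted p = 0.00216) and 1.82 ± 0.34 (adjusted p = 0.000823).

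Of the 6 membrane type MMPs, all rose in control wall and 4 in caNrf2 wall, with median log2 fold changes of 0.99 and 0.92. Mmp14 was at 73.2, 121, 88.6 and 82.7 CPM untreated and 111, 170.3, 135 and 258 CPM with DSS in controls. caNrf2 libraries were at 71.5, 76.6, 87.1 and 84.3 CPM and 222, 158, 119 and 140.0 CPM. The control groups overlapped by 1 library on each side and the caNrf2 groups did not, with log2 fold changes of 0.99 ± 0.25 (adjusted p = 0.00584) and 1.04 ± 0.25 (adjusted p = 0.00414). Mmp15 was at 209, 172, 209 and 152 CPM untreated and 243, 256, 239 and 298 CPM with DSS in controls, and at 235, 239, 290.3 and 155 CPM and 223, 291, 317 and 307 CPM in caNrf2 wall. It changed by 0.59 ± 0.17 (adjusted p = 0.0129) in control and 0.34 ± 0.17 (adjusted p = 0.121) in caNrf2 wall, where the groups overlapped. Mmp16 (MT3-MMP) was at 0.668, 1.4, 0.984 and 1.12 CPM untreated and 1.1, 1.95, 3.3 and 1.99 CPM with DSS in controls, and at 1.69, 0.752, 1.11 and 0.634 CPM and 2.63, 2.64, 1.6 and 3.21 CPM in caNrf2 wall. Its groups overlapped in both genotypes, with log2 fold changes of 1.11 ± 0.38 (adjusted p = 0.0288) and 1.35 ± 0.38 (adjusted p = 0.011), and the control call was lost without DSS library 3 (0.80, adjusted p = 0.106). Mmp25, a lipid-anchored MMP known from neutrophils, was at 0.483, 0, 0.299 and 0.308 CPM untreated and 0.44, 1.45, 0.776 and 0.986 CPM with DSS in controls. Its caNrf2 values were 0.094, 0.213, 0.36 and 0.24 CPM and 1.08, 1.1, 0.618 and 0.569 CPM. It was low throughout, the control groups overlapped, and its log2 fold changes were 1.74 ± 0.53 (adjusted p = 0.0154) and 1.91 ± 0.55 (adjusted p = 0.012). Mmp17 and Mmp24 changed by 0.74 ± 0.25 and 0.99 ± 0.32 in control wall, both past the threshold. In caNrf2 wall Mmp17 passed at 0.78 ± 0.25 and Mmp24 did not at 0.81 ± 0.32 (adjusted p = 0.0532). Mmp24 exons overlap those of a gene on the other strand, and the sources used here do not say whether counting used strand.

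Mmp19, a secreted MMP of vessels and macrophages, was at 7.69, 13.5, 9.53 and 9.08 CPM untreated and 19.4, 27.4, 19.4 and 43 CPM with DSS in controls. The caNrf2 wall held 8.52, 7.51, 9.85 and 7.15 CPM and 36.3, 25.1, 18 and 21 CPM. The groups were apart in both genotypes, with log2 fold changes of 1.57 ± 0.28 (adjusted p = 0.000706) and 1.65 ± 0.28 (adjusted p = 0.000463). Its exons also overlap a gene on the other strand, Tmem198b. Mmp28 (epilysin), an epithelial MMP, had means of 3.56 ± 1.21 and 5.38 ± 1.46 CPM (SD, n = 4) in untreated and DSS control wall, and 2.68 ± 0.438 and 6.79 ± 0.869 CPM in caNrf2 wall. The log2 fold changes were 0.70 ± 0.26 (adjusted p = 0.0405) and 1.37 ± 0.26 (adjusted p = 0.000911), and the former call was lost under 10 of 18 alternatives. Mmp23 had means of 7.21 ± 0.906 and 11.1 ± 3.39 CPM in control and 5.64 ± 0.476 and 11.7 ± 1.81 CPM in caNrf2 wall. It rose by 0.74 ± 0.21 (adjusted p = 0.012) and 1.09 ± 0.21 (adjusted p = 0.0011).

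Among the ADAMTS proteoglycanases, which cut versican, aggrecan and related proteins, Adamts4 changed most. It was at 2.88, 3.71, 2.13 and 1.8 CPM untreated and 8.04, 16.7, 4.51 and 59.4 CPM with DSS in controls. For caNrf2 wall the values were 0.656, 0.681, 0.523 and 0.908 CPM and 44.5, 24.3, 6.2 and 8.5 CPM. All DSS libraries were above the untreated ones, and the log2 fold changes were 3.22 ± 0.72 (adjusted p = 0.00298) and 4.94 ± 0.80 (adjusted p = 0.000326). Without control DSS library 4 and caNrf2 DSS library 1 they were 1.98 (adjusted p = 0.0052) and 4.22 (adjusted p = 0.000123). Adamts1 was at 15.1, 27.8, 18 and 9.44 CPM untreated and 22.5, 36.9, 35.9 and 189 CPM with DSS in controls, and at 25.1, 20.6, 11 and 7.88 CPM and 175, 55.4, 32.4 and 55.5 CPM in caNrf2 wall. The control groups overlapped, the caNrf2 groups did not, and a single library in each DSS group was over 3 times the next one. The log2 fold changes were 2.15 ± 0.66 (adjusted p = 0.0165) and 2.36 ± 0.66 (adjusted p = 0.00998). They were 0.97 (adjusted p = 0.152) without control DSS library 4 alone and 1.56 (adjusted p = 0.0534) without caNrf2 DSS library 1 alone.

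Adamts5, the other main aggrecanase, was at 2.82, 4.03, 2.88 and 3.97 CPM untreated and 5.5, 8.93, 9.46 and 13.2 CPM with DSS in controls. With the transgene it was at 3.28, 2.78, 2.85 and 2.69 CPM and 17.2, 10.6, 7.28 and 7.03 CPM. The groups did not overlap, and it rose by 1.55 ± 0.31 (adjusted p = 0.00137) and 1.91 ± 0.31 (adjusted p = 0.000348). Adamts8 was at 8.32, 8.56, 9.38 and 9.73 CPM untreated and 13.2, 16.4, 23.9 and 13.7 CPM with DSS in controls, and at 7.96, 6.2, 6.41 and 7.54 CPM and 21.7, 19.5, 15.1 and 26.6 CPM in caNrf2 wall. It rose by 1.01 ± 0.21 (adjusted p = 0.00201) and 1.60 ± 0.22 (adjusted p = 0.000105), with its groups apart in both. Adamts15, the most abundant ADAMTS gene in untreated wall by TPM, did not follow the others. It was at 45.2, 42.2, 49.7 and 118 CPM untreated and 92.2, 48.6, 62.6 and 46.5 CPM with DSS in controls, and at 62.3, 84.3, 70.5 and 125 CPM and 59.7, 51.1, 56.9 and 65.9 CPM in caNrf2 wall. Its groups overlapped, and its log2 fold changes were 0.05 ± 0.31 (adjusted p = 0.904) and -0.52 ± 0.32 (adjusted p = 0.192). Without library 4 of every wall group the former was 0.64 (adjusted p = 0.023). Adamts9 was at 0.80 ± 0.29 (adjusted p = 0.0366) in control and 0.70 ± 0.29 (adjusted p = 0.0622) in caNrf2 wall, and Adamts20 passed in neither.

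Of the procollagen N-proteinases, which remove the amino-terminal propeptide of fibrillar procollagens, Adamts2 was the most abundant. It was at 9.24, 12.1, 9.53 and 10.6 CPM untreated and 18.9, 24.4, 20.6 and 32.7 CPM with DSS in controls. caNrf2 libraries were at 11.9, 9.71, 13.9 and 8.04 CPM and 32.8, 33.2, 18.1 and 24.2 CPM. The groups were apart in both genotypes, with log2 fold changes of 1.33 ± 0.24 (adjusted p = 0.000705) and 1.36 ± 0.24 (adjusted p = 0.000541). Adamts3 had means of 1.32 ± 0.345 and 3.38 ± 1.61 CPM in control wall and 1.82 ± 0.61 and 3.52 ± 1.99 CPM in caNrf2 wall. It passed in control wall at 1.46 ± 0.42 (adjusted p = 0.0124) and not in caNrf2 wall at 1.02 ± 0.42 (adjusted p = 0.0614), and without control DSS library 4 the former was 1.09 (adjusted p = 0.0564). Adamts14 passed in neither genotype, at 1.24 ± 0.50 and 0.78 ± 0.49.

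Of the 8 tested members in the other ADAMTS group, 5 rose in both genotypes: Adamts6, Adamts7, Adamts10, Adamts12 and Adamts19. Adamts6 was at 1.24, 0.543, 0.785 and 1.44 CPM untreated and 2.8, 4.06, 2.57 and 2.28 CPM with DSS in controls, and at 0.468, 0.66, 0.556 and 0.566 CPM and 4.77, 4.64, 2.81 and 1.34 CPM in caNrf2 wall. It rose by 1.61 ± 0.37 (adjusted p = 0.00357) and 2.61 ± 0.39 (adjusted p = 0.000195), with its groups apart. Adamts7, which cuts cartilage oligomeric matrix protein, was at 2.4, 2.36, 2.12 and 2.93 CPM untreated and 3.86, 5.09, 5.14 and 11 CPM with DSS in controls. Its caNrf2 values were 1.87, 2, 2.36 and 2.4 CPM and 10.7, 6.75, 4.35 and 3.62 CPM. It rose by 1.47 ± 0.36 (adjusted p = 0.00467) and 1.60 ± 0.36 (adjusted p = 0.00268), again without overlap.

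Adamts12, a close relative of Adamts7, was at 0.78, 1.54, 0.822 and 1.17 CPM untreated and 1.54, 2.85, 2.23 and 2.56 CPM with DSS in controls. The caNrf2 wall held 0.656, 0.717, 0.883 and 0.6 CPM and 3.41, 2.57, 1.62 and 1.59 CPM. The control groups touched at 1.54 CPM, and it rose by 1.22 ± 0.32 (adjusted p = 0.00711) and 1.74 ± 0.33 (adjusted p = 0.000863). Adamts19 was at 0.947, 2.36, 0.561 and 1.1 CPM untreated and 2.61, 4.18, 2.52 and 3.31 CPM with DSS in controls, and at 1.45, 0.965, 0.654 and 0.531 CPM and 4.01, 4.04, 1.67 and 2.15 CPM in caNrf2 wall. It rose by 1.50 ± 0.43 (adjusted p = 0.0118) and 1.80 ± 0.44 (adjusted p = 0.00441), with its groups apart. Adamts10, known to act on fibrillin microfibrils, had means of 12 ± 4.2 and 18.5 ± 2.18 CPM in control and 9.42 ± 1.04 and 21.2 ± 7.68 CPM in caNrf2 wall. It rose by 0.72 ± 0.27 (adjusted p = 0.0432) and 1.21 ± 0.27 (adjusted p = 0.00268), and the former call was lost under 13 of 18 alternatives. Adamts13, Adamts16 and Adamts17 passed in neither.

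Of the 4 inhibitors, Timp1, Timp2 and Timp3 rose in both genotypes. Timp1, an inducible inhibitor, was at 2.51, 3.44, 3.54 and 2 CPM untreated and 6.97, 19.8, 12.4 and 34.5 CPM with DSS in controls. For caNrf2 wall the values were 2.44, 3.33, 2.81 and 1.87 CPM and 34.5, 11.2, 4.25 and 17.5 CPM. Every DSS library was above every untreated one, and the log2 fold changes were 2.81 ± 0.54 (adjusted p = 0.00116) and 2.74 ± 0.54 (adjusted p = 0.0012). Timp2 was at 117, 123, 122 and 152 CPM untreated and 231, 291, 352 and 320.0 CPM with DSS in controls, and at 152, 127, 151 and 119 CPM and 314, 323, 249 and 308 CPM in caNrf2 wall. It had the smallest adjusted p of the members in control wall, with log2 fold changes of 1.32 ± 0.16 (adjusted p = 8.51e-05) and 1.16 ± 0.16 (adjusted p = 0.000131), and its groups were apart. Timp3, which is held in the matrix, was at 197, 225, 198 and 207 CPM untreated and 251, 268, 290.4 and 333 CPM with DSS in controls. With the transgene it was at 182, 146, 175 and 139 CPM and 353, 272, 221 and 297 CPM. It rose by 0.57 ± 0.16 (adjusted p = 0.0103) and 0.87 ± 0.16 (adjusted p = 0.000783), also without overlap.

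Timp4 fell in caNrf2 wall. It was at 6.61, 4.03, 6.57 and 4.57 CPM untreated and 3.3, 1.49, 4.61 and 2.28 CPM with DSS in controls, and at 6.46, 9.68, 7.56 and 8.18 CPM and 0.945, 1.2, 2.96 and 4.8 CPM in caNrf2 wall. The control groups overlapped and the caNrf2 groups did not. The log2 fold change was -0.81 ± 0.42 (adjusted p = 0.136) in control wall and -1.68 ± 0.43 (adjusted p = 0.00574) in caNrf2 wall, and the difference between these was -0.87 ± 0.59 (adjusted p = 0.835). limma-voom called the control change as well, at -1.42 (adjusted p = 0.000665). Timp1, Timp3 and Timp4 lie within introns of the synapsin genes Syn1, Syn3 and Syn2 on the other strand, with no exon overlap in the files. Summed per family, deposited TPM of the MMPs went from 188.7 ± 27.1 to 564 ± 343 in control wall and from 198 ± 34.5 to 524 ± 269.9 in caNrf2 wall. For the TIMPs the sums were 143 ± 30.4 and 322 ± 59.8 TPM, and 133.6 ± 20.1 and 321 ± 115 TPM. The ratio of MMP and ADAMTS TPM to TIMP TPM was 1.59 to 1.68 in untreated and 1.37 to 3.12 in DSS control libraries, and 1.63 to 1.98 and 1.56 to 2.35 in caNrf2 libraries. These sums and ratios are a description without a test.

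Control DSS library 4 held the highest value of its group for 20 of the 39 tested members, and caNrf2 DSS library 1 for 22, where 20.6% and 28.3% of all genes tested were highest in these libraries. They were more than 2 times the next library for 7 and 6 members. The same libraries led Il1b, Il6, Il11 and Osm, cytokines known to induce MMP genes. Il1b was at 4.11, 19.1, 11.7 and 111 CPM in control and 55.1, 14.6, 8.03 and 11.6 CPM in caNrf2 DSS wall. Il11 was at 0.283, 6.13, 0.824 and 56.6 CPM and 35.6, 2.77, 0.412 and 8.29 CPM. Other known inducers did not all follow. The AP-1 subunit genes Fos, Fosb and Fosl1 were highest in control DSS library 4 but not in caNrf2 DSS library 1. Fos was at 347, 389, 407 and 205 CPM in caNrf2 DSS wall. Tnf was at 10.2 to 19.7 CPM in control and 11.5 to 19.4 CPM in caNrf2 DSS wall. The smooth muscle marker sum was lowest in these 2 libraries, 8995 and 12079 CPM, against 15399 to 36570 CPM in the other DSS libraries. Their part in the members' values was not tested.

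The difference of the DSS effect between the genotypes did not pass for any of the 39 members (edgeR quasi-likelihood test), and 0% of all genes tested passed it. The smallest adjusted p of a member was 0.682, for Adamts8 at 0.59 ± 0.30. At an unadjusted p below 0.05 there were 0 members and 1279 genes, 7.96% of all tested. DESeq2 and limma-voom also called 0 members. The intervals were wide for the members that moved most: the difference was -0.62 ± 1.67 for Mmp10, -0.42 ± 1.67 for Mmp13, 0.53 ± 0.98 for Mmp3 and 1.73 ± 0.99 for Adamts4.

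For the transgene in untreated wall 0 of 39 members passed (edgeR quasi-likelihood test), and 0.224% of all genes did. At an unadjusted p below 0.05 there were 2 members (Adamts4 and Adamts6) and 1681 genes, 10.5% of those tested. Adamts4 had the smallest p of the members: its 4 caNrf2 values, 0.52 to 0.91 CPM, all lay below the 4 control values, 1.80 to 3.71 CPM, with a log2 fold change of -1.84 ± 0.75 (adjusted p = 0.38). With DSS the same gene differed by -0.12 ± 0.66 between the genotypes. Adamts8 and Timp3 were the other members whose groups did not overlap, 3 of 39 lower in caNrf2, against 3.99% of all genes. limma-voom with quality weights called 2 members, Adamts15 and Adamts16, at 0.64 (adjusted p = 0.0285) and 1.61 (adjusted p = 0.0292), and no other alternative called any.

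In DSS-treated wall 0 of 39 members differed between the genotypes, where 0.0933% of all genes passed, and 0 members and 407 genes (2.53% of all) were at an unadjusted p below 0.05. Mmp12 had the smallest p, with a log2 fold change of -1.06 ± 0.65 (adjusted p = 1.0), and its values overlapped. In epithelial cells 0 of the 15 tested members differed, and 0% of all genes tested passed. At an unadjusted p below 0.05 there were 1 member and 1344 genes, 10.4% of all. That member was Adamts15, at 2.3, 3.03, 3.08 and 4.28 CPM in control and 10.4, 7.76, 12.3 and 1.98 CPM in caNrf2 epithelial cells. In the latter, library 4 lay below all controls and the other 3 above them, and the log2 fold change was 1.40 ± 0.52 (adjusted p = 0.4). Mmp28 was at 19.6, 14.5, 15.2 and 14.5 CPM in control and 12.5, 24.2, 35.3 and 24.2 CPM in caNrf2 cells, with a log2 fold change of 0.61 ± 0.28 (adjusted p = 0.507). No alternative, DESeq2 and limma-voom included, called a member in DSS wall or in epithelial cells.

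Against the untreated wall, 14 members had enough counts on both sides: 6 were lower in epithelial cells and 3 higher, in each genotype. The lower ones were Adamts1, Adamts2, Adamts15, Mmp2, Timp2 and Timp3, and the higher ones Mmp28, Adamts16 and Adamts17. The share of all genes with enough counts on both sides was not computed, so these counts have no matching background. A further 22 members passed the filter on low counts through wall alone and Mmp7 through epithelial cells alone, so these had to differ and are described by their values. With them, in controls 24 of 37 tested members were lower and 4 higher, where 38.6% of all genes were called, 19.7% lower and 18.9% higher. In caNrf2 mice 24 were lower and 4 higher, where 43.5% of all genes were called, 23.5% lower and 20% higher. The median log2 fold change of the members was -2.60 and -2.70, against 0.04 and -0.01 over all genes, and was the same with genes at 0 set to their bound, and these counts and medians describe the filter as well as the tissue. Without epithelial control library 3 and caNrf2 library 1, 29 and 30 members were called. The fibroblast marker sum was 9.24 to 227.5 CPM in epithelial cells and 1044 to 1335 CPM in untreated wall, and that of 8 endothelial markers was 7.26 to 127 and 125 to 173 CPM. Residual wall cells in these libraries were not tested as a source of the remaining signal.

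**Figure D5:**
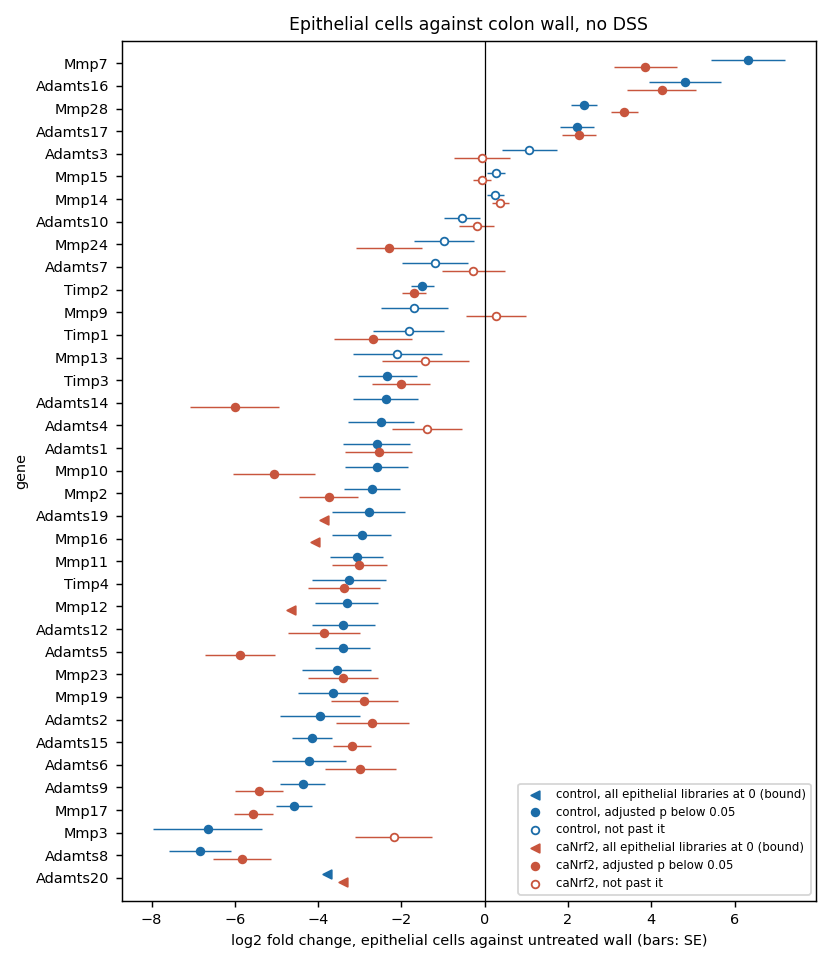
Log2 fold change of epithelial cells against untreated wall (x axis, bars are SE) for the 37 tested members in control (blue) and caNrf2 (red) mice, filled where the adjusted p was below 0.05, with triangles at the bound where all epithelial libraries had 0 counts. Mmp7, Adamts16, Mmp28 and Adamts17 lie on the right, Mmp14 and Mmp15 near 0, and most others on the left.

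Mmp7, Mmp28, Adamts16 and Adamts17 are named here after their values were seen. Mmp7 (matrilysin), known in mouse small intestine for activating Paneth cell defensins, was at 5.58, 6.93, 2.42 and 4.15 CPM in control and 1.96, 1.34, 6.94 and 5.58 CPM in caNrf2 epithelial cells. Untreated wall had 0.019, 0.136, 0.087 and 0.054 CPM for controls and 0.14, 0.802, 0.131 and 0.051 CPM for caNrf2 mice, with 113 of the counts of the latter in library 2 and at most 4 in each other one. Every epithelial library was above every wall library. Mmp28, whose epithelial values are given above, differed by 2.39 ± 0.31 (adjusted p = 2.35e-05) and 3.35 ± 0.32 (adjusted p = 1.22e-06), with no overlap. Adamts16 was at 4.84, 3.11, 1.1 and 3.24 CPM in control and 0.35, 1.61, 11.4 and 3.14 CPM in caNrf2 epithelial cells, against 0.056 to 0.36 CPM over both untreated wall groups. Its log2 fold changes were 4.82 ± 0.87 (adjusted p = 0.000387) and 4.25 ± 0.84 (adjusted p = 0.000731). Adamts17 was at 4.51, 3.9, 3.67 and 4.8 CPM and 3.01, 1.96, 7.57 and 2.44 CPM, against 0.686 to 1.19 CPM in untreated wall, and differed by 2.21 ± 0.41 (adjusted p = 0.000464) and 2.26 ± 0.41 (adjusted p = 0.000375).

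Mmp14 and Mmp15 did not pass between epithelial cells and wall. Mmp14 was at 109, 105, 61.5 and 99.1 CPM in control and 60, 88.7, 114 and 103 CPM in caNrf2 epithelial cells, with log2 fold changes of 0.26 ± 0.21 (adjusted p = 0.366) and 0.38 ± 0.21 (adjusted p = 0.162) against untreated wall. Without epithelial control library 3 and caNrf2 library 1 the latter was 0.49 (adjusted p = 0.0131), and limma-voom called both, at 0.58 and 0.42. Mmp15 was at 158, 170.1, 272 and 167 CPM and 221, 220.2, 169 and 161 CPM, and its log2 fold changes were 0.27 ± 0.21 (adjusted p = 0.321) and -0.07 ± 0.21 (adjusted p = 0.819). Control library 3, the library with the high epithelial marker sum, held the highest Mmp15 value.

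Timp2 and Timp3 were lower in epithelial cells. Timp2 was at 40.9, 51.7, 21.5 and 42.8 CPM in control and 16.7, 40.3, 48.7 and 43.6 CPM in caNrf2 cells, with log2 fold changes of -1.50 ± 0.28 (adjusted p = 0.000582) and -1.70 ± 0.28 (adjusted p = 0.000191). Timp3 was at 30.7, 68.5, 1.83 and 40.1 CPM and 4.27, 31.3, 48 and 58.5 CPM, with -2.34 ± 0.70 (adjusted p = 0.0151) and -2.0 ± 0.70 (adjusted p = 0.0285). For both, the lowest values were those of control library 3 and caNrf2 library 1, which also had the lowest fibroblast sums of their groups. Timp1 was at 2.13, 0.318, 0.22 and 0 CPM and 0.07, 0.089, 0.07 and 1.4 CPM, and in controls its values overlapped those of wall. Timp4 was at 0.82, 0.478, 0.147 and 0.519 CPM and 0.07, 0.089, 0 and 2.91 CPM, below wall in every library. The TIMP sum was 37.4 ± 19 TPM in control epithelial cells, against 143 ± 30.4 TPM in control wall.

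Mmp2, Adamts15, Adamts1 and Adamts2 were also lower in epithelial cells. Mmp2 was at 3.85, 13.8, 0.147 and 4.93 CPM in control and 1.4, 2.68, 1.75 and 8.95 CPM in caNrf2 cells, with log2 fold changes of -2.70 ± 0.67 (adjusted p = 0.00471) and -3.75 ± 0.72 (adjusted p = 0.000564). Adamts15, at the values given above, differed by -4.14 ± 0.49 (adjusted p = 8.37e-06) and -3.19 ± 0.45 (adjusted p = 4.36e-05). Adamts1 was at 3.69, 5.1, 0.073 and 1.04 CPM and 0.28, 0.803, 3.86 and 5 CPM, with -2.59 ± 0.80 (adjusted p = 0.0178) and -2.54 ± 0.81 (adjusted p = 0.0178). Adamts2 was at 0.902, 1.19, 0 and 0.13 CPM and 0.07, 0.089, 0.841 and 5.35 CPM, with -3.95 ± 0.96 (adjusted p = 0.00388) and -2.70 ± 0.88 (adjusted p = 0.02). The next genes entered the test through wall alone. Adamts5 was at 0.492, 0.159, 0 and 0.519 CPM and 0.14, 0, 0 and 0 CPM. Adamts8 was at 0, 0.239, 0 and 0 CPM and 0, 0, 0.14 and 0.349 CPM, from 3 and 5 counts. Adamts4 was at 0.82, 0.398, 0 and 0.389 CPM and 0.07, 0.803, 0.07 and 0 CPM, overlapping wall in caNrf2 mice.

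The stromelysins Mmp3 and Mmp10 and the collagenases Mmp13 and Mmp8 were low in these unchallenged epithelial libraries. Untreated wall was itself low for Mmp10 (0.362 to 1.54 CPM), Mmp13 (0.86 to 2.06 CPM) and Mmp8 (at most 0.091 CPM). Epithelial values overlapped those of untreated wall for Mmp13 and Mmp8 in both genotypes and for Mmp3 in caNrf2 mice. For Mmp8, control epithelial libraries 1 and 3 lay above every untreated wall library, from 2 counts each. Mmp3 was at 0.082, 0, 0 and 0.13 CPM in control and 0, 0, 1.61 and 0.116 CPM in caNrf2 cells, and caNrf2 library 3 held nearly all of it. Mmp10 was at 0.164, 0.159, 0 and 0.13 CPM and 0, 0.089, 0 and 0 CPM. Mmp13 was at 0.164, 1.04, 0 and 0.13 CPM and 0, 0.089, 0 and 2.09 CPM, with 1 library in each genotype above the rest. Mmp8 was at 0.164, 0, 0.147 and 0 CPM and 0, 0, 0 and 0 CPM. No DSS-treated epithelial libraries were analysed here, so the response of the epithelium itself was not measured.

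Of the remaining named members, Adamts10 was at 2.42 to 9.95 CPM in control and 2.52 to 10.7 CPM in caNrf2 epithelial cells. Adamts3 was at 1.04 to 3.61 CPM and 0 to 3.44 CPM. Both overlapped untreated wall in each genotype. Mmp23 was at 0 to 1.43 CPM and 0 to 1.16 CPM, below wall in every library. The others had low values in epithelial cells. Mmp11 was at 0.41, 0.318, 0.734 and 0.389 CPM in control and 0.56, 0.178, 0 and 0.93 CPM in caNrf2 cells, and Mmp19 at 0.656, 1.75, 0 and 0.259 CPM and 0.49, 0.446, 0.07 and 3.26 CPM. Mmp9 was at 0.574, 0.716, 0 and 0.259 CPM and 0.07, 0.625, 3.23 and 1.74 CPM, and Mmp25 at 0.164, 0.318, 0 and 0.259 CPM and 0, 0.357, 0.491 and 0.349 CPM. All 4 were below 4 CPM in every epithelial library and Mmp25 overlapped wall in both genotypes, Mmp9 in caNrf2 mice. Adamts6 was at 0.082, 0, 0 and 0.13 CPM and 0.21, 0, 0 and 0 CPM, and Adamts7 at 1.56, 1.04, 0.073 and 1.04 CPM and 0, 1.34, 3.86 and 1.05 CPM. Adamts12 was at 0, 0.239, 0.073 and 0 CPM and 0.14, 0, 0 and 0 CPM, and Adamts19 at 0.492, 0.08, 0 and 0 CPM and 0, 0, 0 and 0 CPM. Adamts7 overlapped wall in caNrf2 mice, and the other 3 lay below wall in every library. Mmp16 was at 0.164, 0.08, 0 and 0.259 CPM in control cells and Mmp12 at 0, 0.398, 0 and 0.13 CPM, and both had 0 counts in all caNrf2 epithelial libraries. A floor of 3 counts over the group makes Mmp12 at least 25-fold, Mmp16 at least 16.9-fold and Adamts19 at least 14.5-fold lower than in caNrf2 wall. Adamts20 had 0 counts in all 8 epithelial libraries and was at least 13.8-fold lower in control and 10.7-fold lower in caNrf2 mice.

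The wider protease network in the wall was read from gene lists, by counts and medians, beside 23.1% of all genes higher with DSS in each genotype. Of 15 matrix substrates tested, 13 rose with DSS in control and 15 in caNrf2 wall, with median log2 fold changes of 1.22 and 1.49. Col1a1, Col1a2, Col3a1 and Dcn of this list are also among the fibroblast markers summed above, so the list and that sum are not separate readings. Col1a1, a fibrillar collagen chain, rose by 1.11 ± 0.23 and 1.32 ± 0.23, and Vcan, the versican that ADAMTS proteases cut, by 1.96 ± 0.46 and 2.06 ± 0.46. Of 16 other inhibitors and regulators, 12 rose in control and 13 in caNrf2 wall and none fell, with medians of 0.89 and 1.01. Reck, a membrane-bound MMP inhibitor, rose by 1.2 ± 0.23 and 1.31 ± 0.23, and Bsg, which encodes the MMP inducer basigin, was at -0.36 ± 0.20 (adjusted p = 0.166) and -0.33 ± 0.20 (adjusted p = 0.195). Of 6 plasminogen system genes, 3 and 2 rose, a count too small to set against that share. Plat, tissue plasminogen activator, was at 1.21 ± 0.38 and 1.95 ± 0.39, and at 1.06 (adjusted p = 0.0545) in control wall without DSS library 4. Without that library 1 of the 6 rose and 1 fell. Of 13 cytokines and AP-1 subunits known to raise MMP genes, 9 rose in each genotype, with medians of 2.32 and 2.53. Without control DSS library 4 the count was 6 in control wall (median 0.81), and without caNrf2 DSS library 1 it was 6 in caNrf2 wall (median 2.06). With both left out it was 6 in control wall (median 0.79) and 10 in caNrf2 wall (median 2.08). Il11 rose by 5.71 ± 1.44 and 5.48 ± 1.47, Fos by 2.62 ± 0.76 and 2.12 ± 0.75 and Jun by 1.46 ± 0.34 and 1.12 ± 0.34. In control wall without DSS library 4 they were at 2.99 (adjusted p = 0.046), 1.06 (adjusted p = 0.145) and 0.81 (adjusted p = 0.00674). In caNrf2 wall without DSS library 1 they were at 3.76 (adjusted p = 0.0369), 2.06 (adjusted p = 0.0553) and 1.07 (adjusted p = 0.0309). With both libraries left out they were at 3.78 (adjusted p = 0.00621), 2.08 (adjusted p = 0.0112) and 1.09 (adjusted p = 0.00112) in caNrf2 wall. Fosl1 fell in control wall by 3.13 on the log2 scale (adjusted p = 0.00365), where the untreated control libraries were at 23.1, 32.3, 39.2 and 1.47 CPM and the DSS ones at 1.35, 2.07, 1.26 and 5.15 CPM. No gene of these lists passed in the genotype comparisons within wall or in the difference of the DSS effect.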

How the data were processed

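RNA of colon wall and epithelial cells was sequenced. The submitters' processing notes name RSEM 1.2.11, FastQC and mm10; the sources used here give no aligner or strand setting. The authors deposited an expected count and a TPM value per RefSeq transcript. Here deposited expected counts were summed per symbol and rounded, and deposited TPM values were summed to compare levels between genes. Members and lists were chosen with earlier results of these data known. Genes were tested with edgeR 4.0.16 (R 4.3.3): TMM scaling, filterByExpr by group, quasi-likelihood F test, Benjamini-Hochberg adjustment over all genes, threshold 0.05. Fits used 16 wall libraries (16074 genes), 8 epithelial libraries (12941 genes) and the 16 untreated libraries (15073 genes). Each SE is the size of the log2 fold change over the root of its F statistic. CPM values share one TMM scaling over 24 libraries. No pair of libraries within a group agreed within sampling noise. Labels do not say that replicates are separate animals, so p-values measure the spread between these samples, which may be technical. Members named with values in every library passed both DSS comparisons at a log2 fold change over 1, were TIMPs, had the smallest p in a genotype comparison, or were among the top 3 by TPM in a tissue; those past 1 in only one DSS comparison are given by group values. Steps were tested on simulated data. Alternatives used other scalings, no filter, DESeq2 1.42.0, limma 3.58.1, a replicate block and left-out libraries. Promoter sequences are from RefSeq (GRCm38.p6).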

Additional observations from a re-analysis of the deposited data

Results flagged for a closer look

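For the 31 named members, 156 groups of 4 libraries with at least 20 counts were examined for a library far from the other 3, and 19 were found. Chance gives about 1 in 20 for independent values with a normal spread. CPM values of genes that share libraries need not be such, so the 19 are not read as an excess. Of the 19, 8 lie in the 2 DSS libraries described above. In control DSS library 4, Mmp3 was at 172 CPM, Mmp10 at 144 CPM, Mmp13 at 139.9 CPM, Adamts1 at 189 CPM and Mmp12 at 11.4 CPM. In caNrf2 DSS library 1, Mmp10 was at 94.7 CPM, Mmp13 at 81.1 CPM and Adamts1 at 174.5 CPM.

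In untreated control wall, library 4 was highest for Adamts15 at 118 CPM and Timp2 at 152 CPM, and library 2 was lowest for Mmp13 at 0.86 CPM. In control epithelial cells, Mmp15 was at 271.5 CPM in library 3, and library 1 was highest for Mmp28 at 19.6 CPM and Timp1 at 2.13 CPM. In caNrf2 epithelial cells, library 4 was highest for Mmp2 at 8.95 CPM, Adamts2 at 5.35 CPM, Mmp19 at 3.26 CPM and Timp4 at 2.91 CPM. That library also had the highest fibroblast marker sum of its group, 194 CPM. Mmp3 was at 1.61 CPM in caNrf2 epithelial library 3 and at most 0.12 CPM in the others.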

How the results depend on the processing

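Counts of members called stayed within 1.5 times of those reported under every alternative, except that limma-voom called 2 members for the transgene in untreated wall, against 0. With 1 library left out, members called ranged from 24 to 32 (DSS, control), 26 to 32 (DSS, caNrf2), 25 to 29 (epithelial cells against wall, each genotype) and stayed at 0 elsewhere. Of the called members, 15 of 31 (DSS, control), 24 of 28 (DSS, caNrf2), 25 of 28 and 23 of 28 (tissue) were called under every alternative, and none changed sign. Without library 4 of every wall group 22 and 26 members were called with DSS. With the replicate number as a block, 25 and 27 were called with DSS, 28 and 25 between tissues and 0 otherwise. Same-numbered libraries correlated from -0.50 to 0.28, so the numbers were not taken to pair libraries. On the log2 TPM scale the median of all genes moved to 0.20 (DSS, control) and 0.16 (DSS, caNrf2), and 27 and 29 members were called. In epithelial cells 31 of 46 members had too few counts for the test. The lower depth of these libraries and a low level of the RNA both enter such counts and were not told apart. The causes of these shifts were not tested.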
